A study of Mus musculus with 18 samples.

Results

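The genes described here are 8 mouse genes for pore-forming subunits of voltage-gated potassium (Kv) channels: Kcna1 and Kcna2 of the Kv1 family, Kcnc1 and Kcnc2 of the Kv3 family, Kcnd2 and Kcnd3 of the Kv4 family, and Kcnq3 and Kcnq5 of the KCNQ (Kv7) family. They were chosen by gene symbol from the array's annotation, taking each probe set that the annotation assigned to 1 gene. This gave 26 probe sets of 34945 with a single gene, of which 20 passed a filter on low intensity. All 8 genes were among the 14292 genes tested, each represented by its probe set with the highest mean.

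The study profiled cortical interneurons derived from the caudal ganglionic eminence (CGE), an embryonic source of cortical GABAergic cells, sorted by FACS from brain slices of mice carrying GAD65-GFP, a green fluorescent reporter under the promoter of a GABA-synthesising enzyme. The 6 groups combined 3 ages with 2 genotypes. The ages were E14.5, when the cells migrate tangentially, E18.5, when they enter the cortical plate, and P2, when they settle. The genotypes were GAD65-GFP, called control here, and Htr3a-KO;GAD65-GFP, which carries the same reporter but lacks the serotonin receptor gene Htr3a. Each group held 3 arrays from 3 litters, and a single array took its RNA from a pool of 4 or more brains, so the 18 arrays averaged over animals and over all cells in the gate. Because the reporter is present in both genotypes, no group shows the cells without it.

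Kv channels open when a neuron is depolarised and carry the potassium current that ends the action potential and sets the pace of firing. Kv1 channels sit on axons and near the spike initiation site, where they limit excitability. Kv3 channels close fast and allow sustained high-frequency firing, a hallmark of fast-spiking interneurons. Kv4 channels carry the transient A-type current of the soma and dendrites, and KCNQ channels carry the slow M current, which acetylcholine can suppress.

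Promoters of members that rose with age are shown first, ordered by the step that passed in controls. This order does not divide the genes into separate sets. Kcnd3 passed at both control steps and its sequence is not shown, and Kcnd2 also rose to E18.5 in Htr3a-KO. RefSeq promoter windows on GRCm38.p6, running from 250 bases before to 50 bases after an annotated start, existed in the table used here for 6 of the 8 genes. The 6 genes had 10 windows, and the most upstream window of each gene is the one described. Capitals mark GGGCGG or its reverse complement CCGCCC, the GC box bound by Sp1-type factors, and CAGCACC or its reverse complement GGTGCTG, the left part of the RE1 element that the repressor REST recognises. Both strands were searched, and no match overlapped another. The first 3 windows belong to genes that rose from E14.5 to E18.5: Kcnc1 at chr7:46396218-46396517 on the plus strand, Kcnc2 at chr10:112269767-112270066 on the plus strand and Kcnq5 at chr1:21962601-21962900 on the minus strand. The other 2 belong to genes that rose from E18.5 to P2: Kcna2 at chr3:107101317-107101616 and Kcnd2 at chr6:21215096-21215395, both on the plus strand.
Kcnc1: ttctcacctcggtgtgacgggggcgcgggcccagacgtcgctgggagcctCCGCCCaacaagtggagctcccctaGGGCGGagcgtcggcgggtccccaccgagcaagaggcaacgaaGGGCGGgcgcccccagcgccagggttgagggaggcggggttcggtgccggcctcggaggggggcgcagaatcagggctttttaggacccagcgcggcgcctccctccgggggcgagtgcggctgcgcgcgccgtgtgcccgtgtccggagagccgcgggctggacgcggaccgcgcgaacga
Kcnc2: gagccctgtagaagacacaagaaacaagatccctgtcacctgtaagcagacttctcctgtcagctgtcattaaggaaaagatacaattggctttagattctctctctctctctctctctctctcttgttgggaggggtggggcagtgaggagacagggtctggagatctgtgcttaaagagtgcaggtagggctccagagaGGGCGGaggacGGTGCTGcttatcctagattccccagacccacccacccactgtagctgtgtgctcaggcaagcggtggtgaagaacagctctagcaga
Kcnq5: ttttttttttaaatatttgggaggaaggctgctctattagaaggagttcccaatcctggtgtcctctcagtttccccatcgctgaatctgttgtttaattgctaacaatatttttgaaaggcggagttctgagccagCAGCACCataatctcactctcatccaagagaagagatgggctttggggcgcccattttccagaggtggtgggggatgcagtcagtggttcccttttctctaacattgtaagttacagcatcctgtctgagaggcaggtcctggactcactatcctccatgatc
Kcna2: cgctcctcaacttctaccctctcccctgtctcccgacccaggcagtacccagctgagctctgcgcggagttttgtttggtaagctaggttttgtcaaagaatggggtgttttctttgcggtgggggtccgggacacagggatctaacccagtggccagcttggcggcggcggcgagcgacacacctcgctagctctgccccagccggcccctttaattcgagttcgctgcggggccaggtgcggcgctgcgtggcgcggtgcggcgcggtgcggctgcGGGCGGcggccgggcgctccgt
Kcnd2: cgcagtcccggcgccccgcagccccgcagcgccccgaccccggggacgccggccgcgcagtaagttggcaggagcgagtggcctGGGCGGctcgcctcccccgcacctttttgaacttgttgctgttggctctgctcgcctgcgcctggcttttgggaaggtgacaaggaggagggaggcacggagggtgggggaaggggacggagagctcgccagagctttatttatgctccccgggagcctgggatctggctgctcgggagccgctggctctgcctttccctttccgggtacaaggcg

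The windows ranged from 46.0% to 74.7% G and C. The Kcnc1 window was 74.7% G and C with 41 CpG dinucleotides and held 3 GC boxes. The Kcnc2 window was 52.7% G and C, equal to the median of all 32851 windows, with 3 CpGs, 1 GC box and 1 CAGCACC match. The Kcnq5 window was 46.0% G and C, also with 3 CpGs, and held 1 CAGCACC match and no GC box. The Kcna2 window (66.7% G and C) and the Kcnd2 window (68.7%) each held 1 GC box, and the Kcnd3 window (64.0%) held neither motif. Across all windows, 35.7% held a GC box and 7.1% held CAGCACC. No window of the members held TATAAA, found in 13.6% of all windows, or the cyclic AMP response core TGACGT, found in 7.5%. A match only records that the letters occur in the window. Kcnc2 and Kcnq5 have further annotated starts, and their other windows held neither capitalised motif. At the level of whole genes on the same build, Kcna1 lies at chr6:126636463-126645801, Kcnd3 at chr3:105451890-105674002 and Kcnq3 at chr15:65986374-66286636.

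Values are log2 intensities, and a difference of 1 is a 2-fold change. Array medians ranged from 6.35 to 6.46, and the probe-set filter stood at a mean of 5.255. Levels of different probe sets are not comparable, so only differences within a gene are compared. Htr3a itself read 9.64, 10.79 and 10.58 in the E18.5 controls and 6.61, 6.79 and 7.09 in the E18.5 Htr3a-KO, a difference of −3.51 (limma, adjusted p = 7.66e-06). At P2 its difference was −1.94 (adjusted p = 0.0109), and at E14.5 it was −0.75 and did not pass (adjusted p = 0.708). The part of Htr3a that the knockout removes is not given in the sources used here, so whether its probe set lies in the removed part is unknown. Arrays that stood apart were E14.5 control array 3, with the lowest GABAergic and striatal marker means of its group, and E14.5 Htr3a-KO array 1 and P2 control array 1, with the highest microglial marker means of the 18 arrays (9.25 and 9.87). E14.5 control array 3 also had the highest excitatory neuron (10.58) and neural progenitor (10.64) means of its group. Results that depend on these 3 arrays are given with and without them.

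Markers of several cell types moved with age. Of 7 GABAergic markers tested, 0 rose and 4 fell from E14.5 to P2 in each genotype, with median differences of −1.0 in controls and −1.05 in Htr3a-KO. Of 9 CGE interneuron markers, which include Htr3a, 5 rose in controls and 3 in Htr3a-KO, and 0 fell. Of 9 excitatory neuron markers, 8 fell in each genotype. In controls, the mean of 8 astrocyte markers spanned 6.83 to 7.98 at E18.5 and 9.96 to 10.79 at P2. The control mean of 7 oligodendrocyte-lineage markers spanned 6.81 to 7.0 at E14.5, 8.73 to 9.57 at E18.5, and 10.48 to 10.80 at P2. The astrocyte water channel Aqp4 was below the filter level at E14.5 (3.72 in controls) and read 10.64 ± 1.20 (SD, n = 3) at P2. The mean of 8 striatal markers in controls fell from between 8.65 and 10.23 at E14.5 to between 7.02 and 7.54 at E18.5. In Htr3a-KO it lay between 7.82 and 9.12 at E14.5 and between 7.43 and 7.58 at E18.5. In such bulk RNA, a change in the number of cells of a type cannot be told apart from a change in RNA per cell.

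**Figure D1:**
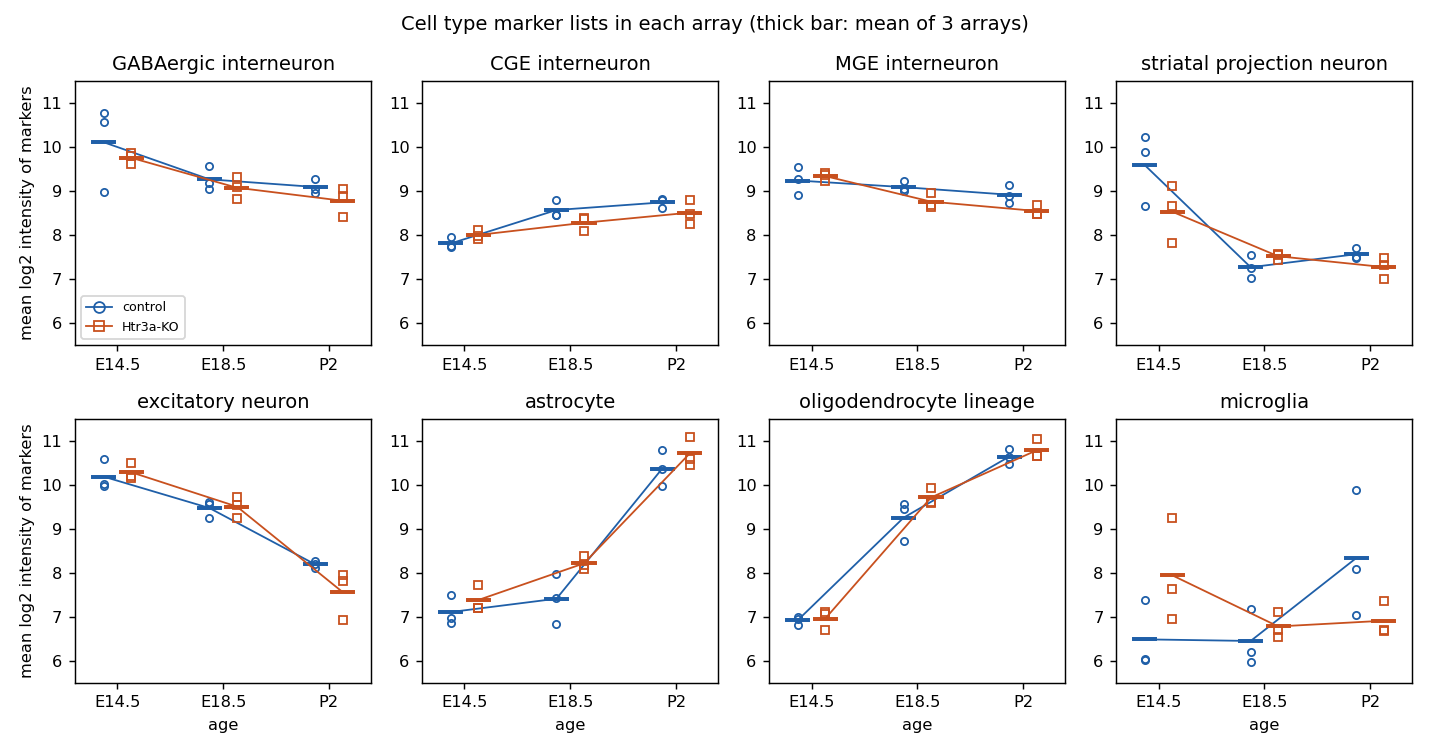
Mean log2 intensity of 8 cell type marker lists (y axis) at each age (x axis), with 1 point per array, circles for control and squares for Htr3a-KO, and thick bars for the mean of 3 arrays. Astrocyte markers rose mainly between E18.5 and P2, oligodendrocyte-lineage markers rose at both steps, and excitatory neuron markers fell at both.

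In controls, Kcnc1, Kcnc2, Kcnd3 and Kcnq5 rose between E14.5 and E18.5, and Kcna2, Kcnd2 and Kcnd3 rose between E18.5 and P2. The first step had 4 of 8 members past an adjusted p of 0.05, all higher, where 11% of all genes passed (6.06% higher and 4.93% lower). Control arrays did not overlap for 4 members in this step, where 30.9% of all genes had no overlap. The second step had 3 of 8, all higher, where 19.7% of all genes passed (9.96% higher and 9.75% lower), and 3 members had no overlap, where 32.8% of all genes had none. From E14.5 to P2, 6 members rose and 1 fell, where 39.2% of all genes passed (18% higher and 21.2% lower), and 7 members had no overlap, where 48.5% had none. The median difference of the members was 0.50, 0.21 and 1.01 in these 3 comparisons, against −0.01, −0.04 and −0.04 over all genes. The comparisons share arrays with each other, so they are not independent of one another. P-values measure the spread between pools from different litters.

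**Figure D2:**
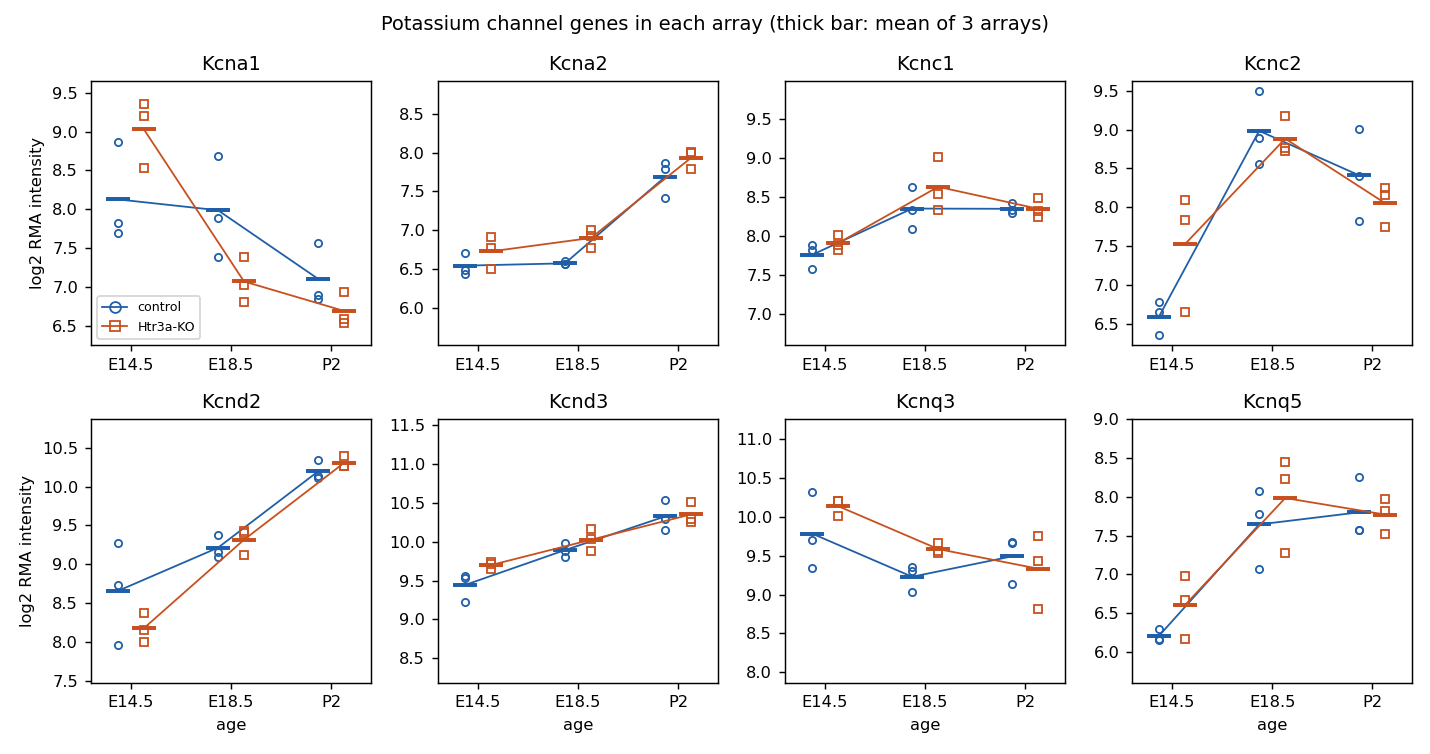
Log2 intensity of each of the 8 genes (y axis) at E14.5, E18.5 and P2 (x axis), with 1 point per array, circles for control and squares for Htr3a-KO, and thick bars for the mean of 3 arrays. Kcnc2 and Kcnq5 step up at E18.5, Kcna2 and Kcnd2 are highest at P2 in both genotypes, and Kcna1 is lowest at P2.

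Among the Kv3 genes, Kcnc2, whose product is the Kv3 subunit also found in somatostatin and parvalbumin interneurons, made the largest step of the 8 genes in controls. Its control values were 6.78, 6.35 and 6.65 (E14.5), 8.89, 9.50 and 8.56 (E18.5) and 9.01, 7.82 and 8.40 (P2). All arrays of the later ages lay above all E14.5 controls. The rise to E18.5 was 2.39 ± 0.35 (SE), or 5.24-fold (adjusted p = 0.00056), and it passed under each alternative setting tried. From E18.5 to P2 the difference was −0.57 (95% confidence interval −1.31 to 0.17, adjusted p = 0.278). In Htr3a-KO its values were 7.84, 8.09 and 6.65 (E14.5), 8.76, 9.17 and 8.72 (E18.5) and 7.74, 8.25 and 8.16 (P2). E14.5 Htr3a-KO arrays 1 and 2 lay above all E14.5 controls, while array 3 lay among them, and the P2 arrays overlapped with arrays 1 and 2. The Htr3a-KO rise to E18.5 was 1.36 (2.56-fold, adjusted p = 0.0178) and did not pass without E14.5 Htr3a-KO array 3 or without E18.5 Htr3a-KO array 2 (largest adjusted p = 0.0799). Over E14.5 to P2 the difference was 1.82 in controls (adjusted p = 0.000776) and 0.52 in Htr3a-KO (−0.22 to 1.26, adjusted p = 0.25). The Htr3a-KO value was 0.09 without E14.5 Htr3a-KO array 3 and 0.81 without array 2 (adjusted p = 0.858 and 0.103). In the order of its 6 group means, all neighbouring groups overlapped.

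Kcnc1, which encodes the Kv3 subunit most associated with fast-spiking cells, moved by less. Its control values were 7.82, 7.88 and 7.57 (E14.5), 8.34, 8.09 and 8.63 (E18.5) and 8.29, 8.42 and 8.34 (P2). The groups at E14.5 and E18.5 did not overlap, and the P2 arrays fell within the E18.5 range. The rise to E18.5 was 0.60 ± 0.16 (SE), or 1.51-fold (adjusted p = 0.0265), and did not pass in 6 alternatives, among them without E14.5 control array 1 or 3, without E18.5 control array 1 or 3, and without the 3 arrays that stood apart (0.50, adjusted p = 0.124). From E18.5 to P2 the control difference was 0.00 (95% confidence interval −0.35 to 0.34). In Htr3a-KO the values were 8.01, 7.82 and 7.89 (E14.5), 8.34, 8.54 and 9.02 (E18.5) and 8.49, 8.32 and 8.24 (P2). Both later groups lay above E14.5, with a step of 0.73 to E18.5 (adjusted p = 0.00847). From E14.5 to P2 the difference was 0.59 in controls (adjusted p = 0.00854) and 0.44 in Htr3a-KO (adjusted p = 0.0375). The Htr3a-KO call was lost in 10 of 21 alternatives, among them the omission of Htr3a-KO array 2 or 3 at E14.5 and of array 1 or 2 at P2. The control call was lost in 1 of 21. Parvalbumin (Pvalb), the marker of mature fast-spiking cells, read 6.34 at E14.5 and 6.61 at P2 in controls (adjusted p = 0.161).

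Kcnq5, a KCNQ subunit that contributes to the M current, moved at the same step as the Kv3 genes. Control arrays read 6.16, 6.30 and 6.17 (E14.5), 8.08, 7.07 and 7.78 (E18.5) and 7.57, 7.57 and 8.26 (P2). The Htr3a-KO values were 6.67, 6.98 and 6.17 (E14.5), 8.45, 8.23 and 7.27 (E18.5) and 7.52, 7.82 and 7.97 (P2). In both genotypes all E18.5 and P2 arrays lay above all E14.5 arrays, and the E18.5 and P2 groups overlapped. The rise to E18.5 was 1.43 ± 0.31 (SE) in controls, or 2.70-fold (adjusted p = 0.00729), and 1.38 in Htr3a-KO (2.60-fold, adjusted p = 0.00875). From E18.5 to P2 the differences were 0.16 (−0.50 to 0.81) and −0.21 (−0.87 to 0.44). The gene's second probe set gave a control rise of 0.82, which did not pass (adjusted p = 0.363), and an Htr3a-KO rise of 2.11. The rise of Kcnc1, Kcnc2 and Kcnq5 coincided with the fall of the striatal list and with a rise of the oligodendrocyte-lineage list. Over the 18 arrays Kcnc1, Kcnc2 and Kcnq5 correlated at −0.66, −0.81 and −0.77 with the striatal mean. With the oligodendrocyte-lineage mean they correlated at 0.75, 0.62 and 0.78. The part of these cell types in these results was not tested.

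Kcnq3, the KCNQ subunit that pairs with others to form M channels, rose in no comparison. Its control values were 9.34, 9.70 and 10.32 (E14.5), 9.35, 9.03 and 9.31 (E18.5) and 9.66, 9.14 and 9.68 (P2). The Htr3a-KO values were 10.01, 10.20 and 10.21 (E14.5), 9.67, 9.53 and 9.56 (E18.5) and 8.81, 9.76 and 9.43 (P2). Control groups overlapped between each pair of ages, whereas the E14.5 Htr3a-KO arrays lay above all later Htr3a-KO arrays. From E14.5 to P2, Kcnq3 fell by 0.81 in Htr3a-KO (1.75-fold, adjusted p = 0.0136), a call lost without P2 Htr3a-KO array 1 (adjusted p = 0.0765). In controls the same span gave −0.29 (−0.80 to 0.22, adjusted p = 0.36). Its second probe set fell in both genotypes over that span, by 0.96 in controls and 0.94 in Htr3a-KO (adjusted p = 0.00343 and 0.00373 over all probe sets). Over the 18 arrays Kcnq3 and Kcnq5 correlated at −0.40, a value that includes the differences between ages.

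The Kv1 genes separated. Kcna2, the axonal Kv1 subunit that delays spiking, rose between E18.5 and P2 in both genotypes. In controls it read 6.49, 6.71 and 6.43 (E14.5), 6.56, 6.56 and 6.60 (E18.5) and 7.41, 7.86 and 7.79 (P2). The Htr3a-KO values were 6.77, 6.91 and 6.50 (E14.5), 6.77, 6.93 and 7.0 (E18.5) and 8.01, 7.79 and 8.0 (P2). Every P2 array exceeded every embryonic array of either genotype. The rise from E18.5 to P2 was 1.11 ± 0.13 (SE) in controls, or 2.16-fold (adjusted p = 5.31e-05), and 1.03 in Htr3a-KO (2.05-fold, adjusted p = 9.15e-05), and both passed under each alternative. From E14.5 to E18.5 the differences were 0.03 (−0.25 to 0.31) and 0.17 (−0.11 to 0.45). This was also the step at which the astrocyte markers rose: 7 of 8 passed as higher in controls, and over the 18 arrays Kcna2 correlated at 0.95 with their mean and at −0.92 with the excitatory neuron mean. The part of a changing cell mixture in the Kcna2 rise was not tested.

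Kcna1, the Kv1 gene whose mutations cause episodic ataxia in humans and whose loss causes seizures in mice, fell from E14.5 to P2 in both genotypes. Its control values were 7.69, 7.82 and 8.87 (E14.5), 8.68, 7.39 and 7.89 (E18.5) and 7.56, 6.90 and 6.85 (P2). The Htr3a-KO values were 9.20, 9.36 and 8.53 (E14.5), 7.38, 7.03 and 6.80 (E18.5) and 6.59, 6.94 and 6.54 (P2). The E14.5 Htr3a-KO arrays lay above all later Htr3a-KO arrays, while E14.5 and E18.5 controls overlapped widely. From E14.5 to E18.5 it fell by 1.96 ± 0.34 (SE) in Htr3a-KO (3.89-fold, adjusted p = 0.00192), and the control difference was −0.14 (−0.87 to 0.59, adjusted p = 0.857). From E14.5 to P2 it fell by 1.02 in controls (2.03-fold, adjusted p = 0.0274) and by 2.34 in Htr3a-KO (5.06-fold, adjusted p = 7.78e-05). The control call was lost in 5 alternatives, among them without P2 control array 2 or 3, and without E14.5 control array 3 the difference was −0.65 (adjusted p = 0.146). The low E14.5 controls, arrays 1 and 2, were the arrays with the highest striatal marker means (9.88 and 10.23, against 8.65 in array 3). Those 2 arrays also had lower excitatory neuron means (9.96 and 10.01) than array 3 (10.58). The E14.5 Htr3a-KO arrays 1, 2 and 3 had striatal means of 7.82, 8.65 and 9.12 and excitatory neuron means of 10.20, 10.16 and 10.49. Over the 18 arrays Kcna1 correlated at 0.42 with the striatal mean, at −0.83 with the oligodendrocyte-lineage mean and at −0.73 with the astrocyte mean. It correlated at 0.76 with both the excitatory neuron and the MGE interneuron means. These correlations include the differences between ages. The part of these cell types in the Kcna1 values was not tested.

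Both Kv4 genes rose with age. Kcnd2, the main A-type subunit of many dendrites, read 8.73, 9.28 and 7.96 in controls at E14.5, then 9.10, 9.16 and 9.38 at E18.5, then 10.14, 10.11 and 10.34 at P2. In Htr3a-KO it read 8.16, 8.37 and 8.0, then 9.40, 9.43 and 9.12, then 10.39, 10.27 and 10.26. All P2 arrays lay above all embryonic arrays, and E14.5 and E18.5 overlapped in controls through E14.5 control array 2 and not in Htr3a-KO. The rise from E18.5 to P2 was 0.98 ± 0.23 (SE) in controls, or 1.98-fold (adjusted p = 0.00708), and 0.99 in Htr3a-KO (1.99-fold, adjusted p = 0.00511), and both passed under each alternative. From E14.5 to E18.5 it rose by 1.14 in Htr3a-KO (2.2-fold, adjusted p = 0.00444), while the control difference was 0.56 (0.08 to 1.04, adjusted p = 0.132). The control value rested on single arrays: leaving out control array 2 of E14.5 gave 0.87, which passed (adjusted p = 0.0129), and leaving out array 3 of that group gave 0.21 (adjusted p = 0.514). Over the whole span it rose 2.91-fold in controls (adjusted p = 8.81e-05) and 4.38-fold in Htr3a-KO (adjusted p = 4.23e-06). Over the 18 arrays its correlation was 0.91 with the oligodendrocyte-lineage mean and −0.93 with the excitatory neuron mean.

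Kcnd3, a Kv4 subunit common in interneurons, rose by small steps. The control arrays read 9.23, 9.54 and 9.56 (E14.5), 9.81, 9.99 and 9.88 (E18.5) and 10.15, 10.54 and 10.29 (P2). Its Htr3a-KO values were 9.65, 9.74 and 9.71, then 9.88, 10.03 and 10.17, then 10.51, 10.29 and 10.26. Within each genotype the 3 ages did not overlap. Both control steps passed, with 0.45 ± 0.12 (SE) to E18.5 (1.37-fold, adjusted p = 0.0271) and 0.43 to P2 (1.35-fold, adjusted p = 0.0207), but the first was lost in 7 alternatives, among them the omission of control array 1 at E14.5 and of control array 2 or 3 at E18.5. The second was lost in 4, among them the omission of control array 1 at E18.5 and of control array 2 at P2. The Htr3a-KO steps were 0.33 each and did not pass (adjusted p = 0.0808 and 0.0564). Over E14.5 to P2 the rise passed in both genotypes, at 1.84-fold (adjusted p = 5.06e-05) and 1.57-fold (adjusted p = 0.000556). Over the 18 arrays Kcnd3 correlated at 0.91 with the oligodendrocyte-lineage mean, 0.89 with the astrocyte mean and −0.86 with the excitatory neuron mean. The part of these cell types in the Kv4 results was not tested.

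**Figure D3:**
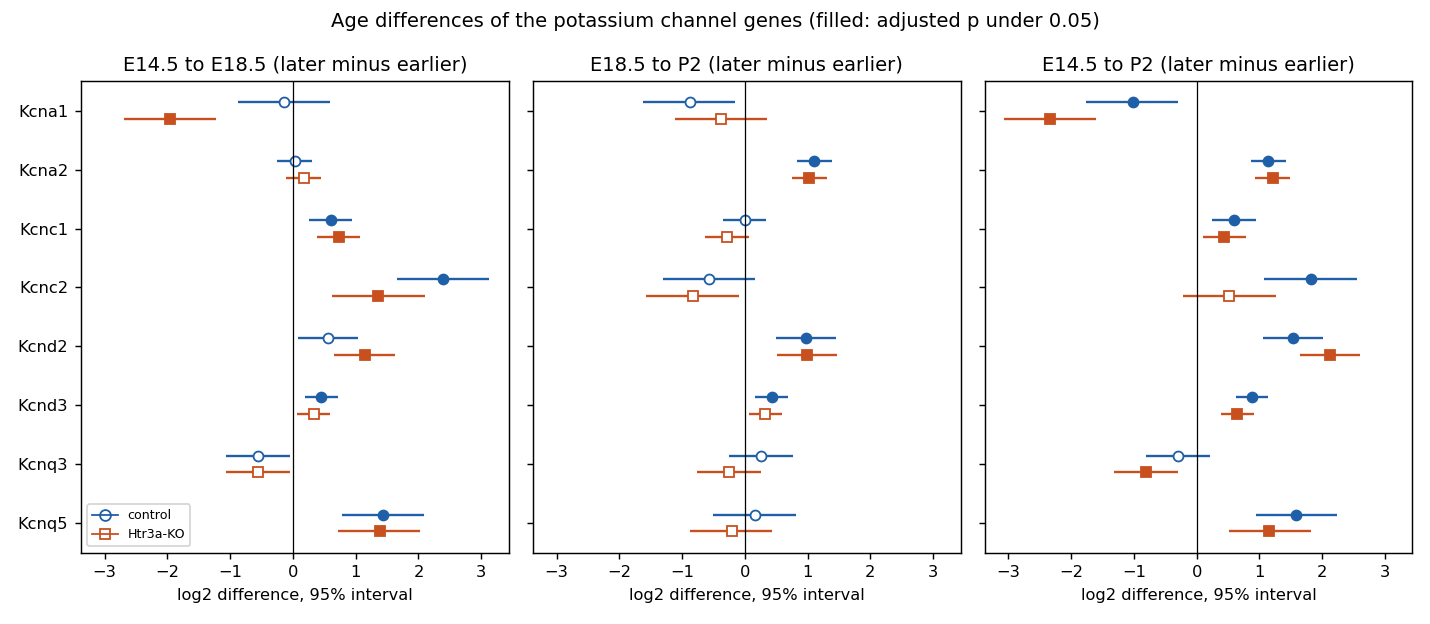
Log2 differences between ages (x axis, later minus earlier, with 95% intervals) for each gene (y axis), with circles for control, squares for Htr3a-KO and filled marks for an adjusted p under 0.05. The filled marks of Kcnc1, Kcnc2 and Kcnq5 lie above 0 in the first panel, and those of Kcna2 and Kcnd2 lie near 1 in the second.

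In Htr3a-KO the age comparisons gave 5 of 8 members from E14.5 to E18.5 (4 higher, 1 lower), where 15.1% of all genes passed (6.26% higher and 8.88% lower). From E18.5 to P2 they gave 2 of 8, both higher, where 28.5% passed (13.5% higher and 15.0% lower). From E14.5 to P2 they gave 7 of 8 (5 higher, 2 lower), where 41.5% passed (15.6% higher and 26.0% lower). The members' medians were 0.53, −0.23 and 0.59, against −0.10, 0.00 and −0.07 over all genes. Arrays of the 2 ages did not overlap for 7 members in the first step, where 37.5% of all genes had no overlap, for 4 in the second, where 47.4% had none, and for 7 over both, where 48.8% had none. Without the 3 arrays that stood apart, the counts from E14.5 to E18.5, E18.5 to P2 and E14.5 to P2 were 3, 4 and 5 in controls and 5, 2 and 6 in Htr3a-KO. The shares of all genes passing in that fit are not given here, so these counts are not set against them. Without these 3 arrays Kcnc1 gave 0.53 (adjusted p = 0.0673) in controls and 0.50 (adjusted p = 0.0533) in Htr3a-KO from E14.5 to P2. Kcna1 then gave −0.88 from E14.5 to P2 in controls (adjusted p = 0.0761) and −1.11 from E18.5 to P2 in controls (adjusted p = 0.0299), the latter past the threshold.

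Ordered by mean, the 6 groups were separated only in places. For Kcna2 the gap without overlap lay between E18.5 Htr3a-KO (6.90) and P2 control (7.69), and for Kcnd2 between the same groups (9.32 and 10.20). For Kcnc1 it lay between E14.5 Htr3a-KO (7.91) and E18.5 control (8.35), and for Kcnq5 again between those groups (6.61 and 7.64). Kcnd3 had gaps between E14.5 control (9.44) and E14.5 Htr3a-KO (9.70) and between the latter and E18.5 control (9.89). All other neighbours in the order overlapped, and for Kcna1, Kcnc2 and Kcnq3 each neighbouring pair did.

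Comparing genotypes asks whether loss of the serotonin receptor shifts these channel genes at a given age. With limma, 0 of 8 members passed at E14.5, where 0.0140% of all genes passed, 0 of 8 at E18.5, where 0.0210% passed, and 0 of 8 at P2, where 0.0350% passed. At an unadjusted p under 0.05 the counts were 2, 2 and 0 members. The corresponding counts over all genes were 838, 1844 and 1083. The control and Htr3a-KO arrays did not overlap for 1 member at E14.5, where 9.01% of all genes had no overlap, for 3 at E18.5, where 20.7% had none, and for 0 at P2, where 9.14% had none.

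At E14.5 the largest differences, Htr3a-KO minus control, were 0.93 for Kcnc2 (95% confidence interval 0.19 to 1.67, adjusted p = 0.724) and 0.90 for Kcna1 (0.17 to 1.64, adjusted p = 0.738). For both genes the groups overlapped. The striatal marker mean at this age was 7.82 to 9.12 in Htr3a-KO and 8.65 to 10.23 in controls. Its part in these 2 differences was not tested. Kcnd3 was the member without overlap, with 9.65 to 9.74 in Htr3a-KO, 9.23 to 9.56 in controls, and a difference of 0.26 (0.00 to 0.52). Kcnd2 differed by −0.48 (adjusted p = 0.857), and by −0.83 without E14.5 control array 3, which then passed (adjusted p = 0.0274).

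At E18.5 the Kcna1 difference was −0.92 (−1.65 to −0.18, adjusted p = 0.31), with all 3 Htr3a-KO arrays (6.80 to 7.38) below all 3 controls (7.39 to 8.68). Kcna2 differed by 0.33 (0.05 to 0.61, adjusted p = 0.337), with Htr3a-KO arrays from 6.77 to 7.0 and controls from 6.56 to 6.60. Kcnq3 differed by 0.36 (−0.15 to 0.87), also without overlap. At the same age the astrocyte marker mean was 8.09 to 8.37 in Htr3a-KO and 6.83 to 7.98 in controls, and its part in the Kcna2 difference was not tested. At P2 the members' differences ran from −0.41 for Kcna1 (−1.15 to 0.32) to 0.25 for Kcna2 (−0.03 to 0.53), and each gene's groups overlapped.

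Averaged over the 3 ages, 0 of 8 members passed, where 0.294% of all genes did. Kcna2 had the smallest p, with a mean difference of 0.25 ± 0.08 (SE, 95% confidence interval 0.09 to 0.41, unadjusted p = 0.00468, adjusted p = 0.272). Its group mean was higher in Htr3a-KO at each age. The other members' mean differences lay between −0.14 and 0.24.

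**Figure D4:**
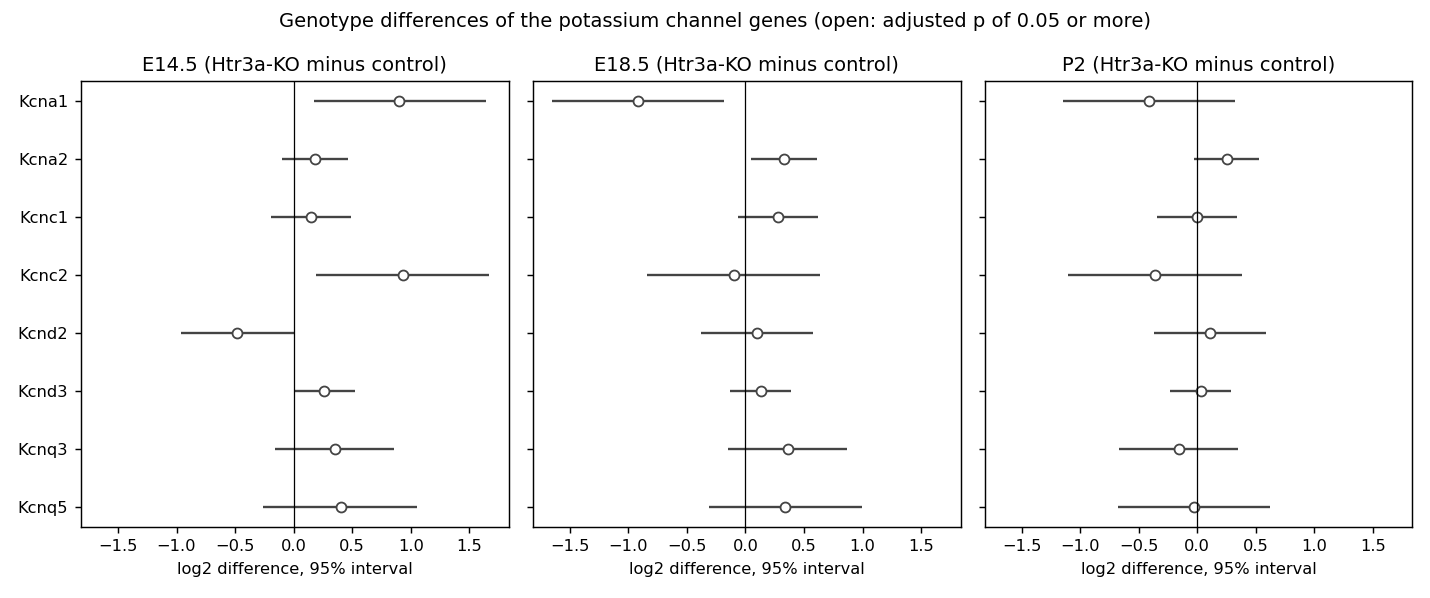
Log2 differences between genotypes (x axis, Htr3a-KO minus control, with 95% intervals) for each gene (y axis) at each age, with open marks for an adjusted p of 0.05 or more. All marks are open, and Kcna1 changes side of 0 between E14.5 (0.90) and E18.5 (−0.92).

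Whether an age step differed between genotypes was tested as an interaction. For the E14.5 to E18.5 step 0 of 8 members passed, where 0.00700% of all genes did, and 1 had an unadjusted p under 0.05, as did 1032 of the 14292 genes. That gene was Kcna1, whose step differed by −1.82 ± 0.49 (SE, −2.85 to −0.79, unadjusted p = 0.00188, adjusted p = 0.682). With array quality weights, the difference was −2.41 and passed (adjusted p = 0.0228). The Kcnc2 step differed by −1.03 (−2.08 to 0.01, adjusted p = 0.685). For the E18.5 to P2 step 0 members passed and 0 had an unadjusted p under 0.05, against 1033 genes in all at that unadjusted level. The steps that passed in 1 genotype alone, such as that of Kcna1 to E18.5, are thus not shown to differ between genotypes at the adjusted threshold.

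Of 7 genes with several probe sets past the filter, 5 gave differences of 1 sign from E14.5 to P2 in controls and 6 in Htr3a-KO. Between genotypes, 4 of the 7 genes had 1 sign at E14.5, 4 at E18.5 and 2 at P2. For the mean over the 3 ages 1 of the 7 did, and for the interactions 2 (E14.5 to E18.5) and 3 (E18.5 to P2) did. The main Kcna2 probe set had a mean genotype difference of 0.25, and its other probe sets past the filter had 0.30 and −0.02. The other 2 probe sets of Kcna1 gave differences from E14.5 to P2 of −0.91 and −0.97 in controls (adjusted p = 0.0462 and 0.058 over all probe sets) and of −1.75 and −1.51 in Htr3a-KO. Those of Kcnd2 rose by 1.27 and 1.69 in controls, and the second one of Kcnd3 by 1.34. A second Kcna2 probe set rose by 1.10 in controls, while another stayed between group means of 5.30 and 5.48, close to the filter level. For Kcnc1, 2 further probe sets had differences of 0.79 and 0.82 to E18.5 in controls, whereas the fourth held between 6.74 and 6.92 in the 6 group means. Kcnc2 had a single probe set, so no second measure of its rise existed on the array.

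Correlations between members over the 18 arrays restate the age steps in part, since the arrays share age groups, and they are given as descriptions. Kcna2 correlated with Kcnd3 at 0.86 and with Kcnd2 at 0.84, and Kcnc2 correlated with Kcnq5 at 0.76. Among the genes that rose early, Kcnc1 also correlated with Kcnc2 at 0.64 and with Kcnq5 at 0.69. Pairs of an early and a late gene varied. Kcnc1, Kcnc2 and Kcnq5 correlated at 0.40, 0.18 and 0.50 with Kcna2, and at 0.57, 0.41 and 0.70 with Kcnd2. Kcnc1 correlated at 0.66 with Kcnd3, which passed at both control steps. Kcna1 ran against Kcnd2 (−0.84) and Kcna2 (−0.68). Among all genes tested, the 2 most similar to Kcna2 were Slc1a2 (r = 0.981), the astrocytic glutamate transporter, and Cpq (0.978). For Kcnd2 they were Cspg5 (0.967), a neural proteoglycan, and Spon1 (0.958), and for Kcnd3 they were Slc12a4 (0.964), a potassium-chloride cotransporter, and Pigq (0.959). For Kcnc2 they were Mfsd6 (0.956) and Micall1 (0.941), and for Kcnq5 they were Rims1 (0.945), an active-zone scaffold, and Opcml (0.945), a cell adhesion molecule. Kcna1 was closest to Lnx2 (0.935) and Luzp1 (0.931), and Kcnq3 to Dlg1 (0.872), a membrane scaffold that binds Kv1 channels, and Inf2 (0.850). Kcnc1 had the weakest match, with Prkar1b at 0.864 and Rpl12 at 0.859.

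Other genes of the channel machinery give the setting. Of 14 listed auxiliary subunits, 11 were tested, and in controls 7 rose and 0 fell from E14.5 to P2, with a median difference of 0.89. In Htr3a-KO 6 rose and 0 fell, with a median of 0.48. Over all genes, 18% were higher and 21.2% lower in controls (median −0.04), and 15.6% higher and 26.0% lower in Htr3a-KO (median −0.07). Kcnip4, a calcium-binding partner of Kv4, went from 4.39 ± 0.19 (SD, n = 3), below the filter level, to 7.24 ± 0.07 (adjusted p = 4.56e-07), and Kcnip2 from 7.19 to 9.26 (adjusted p = 1.05e-06). Kcnip3 rose by 1.09, Dpp10, a peptidase-like partner of Kv4, by 0.89, and Kcnip1 by 0.55 in controls (adjusted p = 0.000224, 0.00208 and 0.0267). Kcnab1, a cytoplasmic beta subunit of Kv1, rose from 7.07 to 8.81 (adjusted p = 0.000182), and Kcne4, a single-span modulator of KCNQ and Kv1 channels, by 1.22. Dpp6 (0.17), Kcnab2 (0.21), Kcnab3 (0.00) and Kcne1 (−0.09) did not pass.

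The 16 tested genes of 32 other Kv pore-forming subunits were mixed over the same span, with 4 higher and 4 lower in controls and 5 higher and 3 lower in Htr3a-KO, where 39.2% and 41.5% of all genes passed. In controls Kcnc4, another Kv3 gene, rose by 1.43, Kcnf1, an electrically silent subunit, by 1.01 and Kcna6, another Kv1 gene, by 0.76. In the same controls Kcnh8, of the EAG family, fell by 1.36 and Kcng1, a silent subunit, fell by 0.83. Among 13 tested genes whose products place Kv channels on the axon or membrane, 4 were higher and 4 lower in controls. Cntnap2, which clusters Kv1 channels beside the node of Ranvier, went from 11.33 to 9.86 (−1.47, adjusted p = 0.000167), and Cntn2, its adhesion partner, changed by −1.24 (adjusted p = 0.0272). Dlg2, a scaffold of the same axonal complexes, rose by 1.91 and Sptbn4, a spectrin of the axon initial segment, by 1.32.

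Among 25 tested genes of other potassium channels, 7 were higher and 3 lower in controls over E14.5 to P2. The largest was Kcnj10, the glial inward rectifier, from 6.07 to 9.89 (adjusted p = 8.15e-06). Kcnk1, a leak channel gene, rose by 1.67 and Kcnj16, a partner of Kcnj10, by 1.03. Kcnn2, a calcium-activated channel gene, fell by 1.04. Over all genes 39.2% passed in controls. In the 3 genotype comparisons, their mean and the 2 interactions, 0 genes of these 4 lists passed in either direction.

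**Figure D5:**
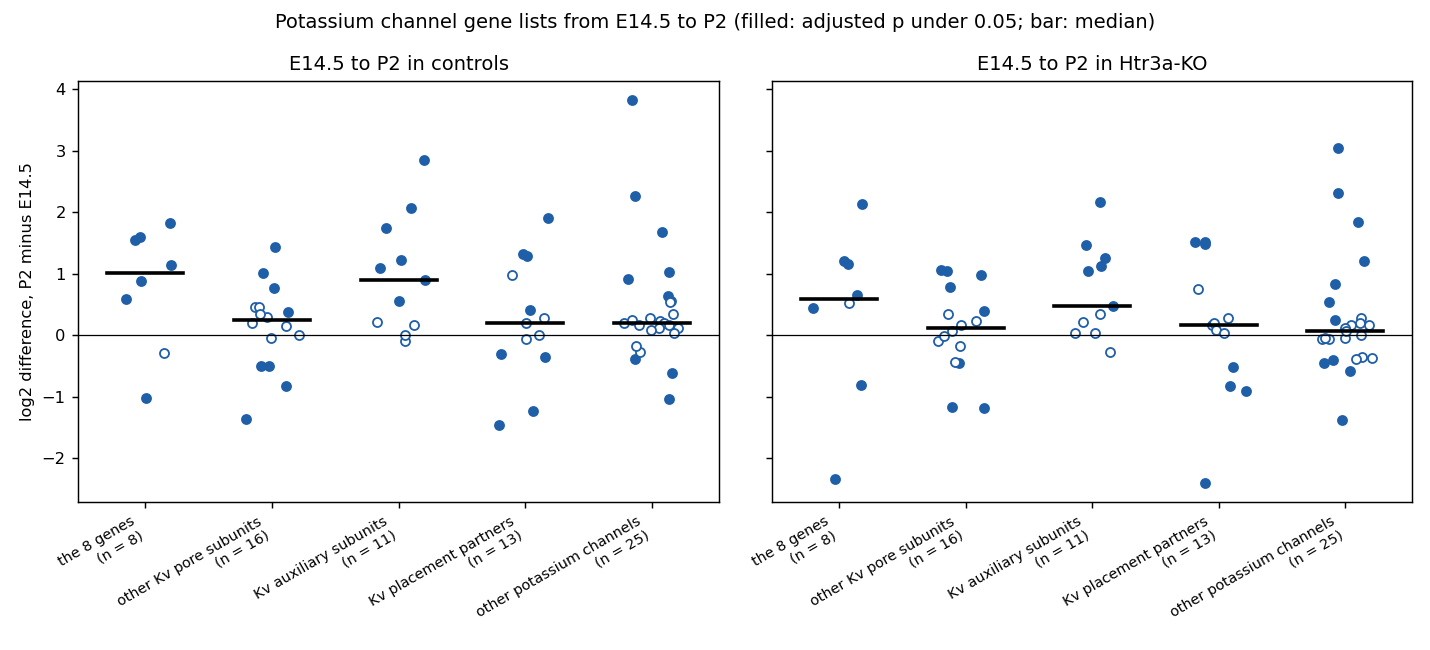
Log2 differences from E14.5 to P2 (y axis) of the 8 genes and of 4 lists of related genes (x axis, with the number tested), for controls on the left and Htr3a-KO on the right, with filled points for an adjusted p under 0.05 and bars for the median. Every filled auxiliary subunit lies above 0 in both panels, and the other lists hold filled points on both sides.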

How the data were processed

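The study measured RNA of sorted cells on 18 Affymetrix Mouse Genome 430 2.0 arrays. Per the labels and the submitters' processing notes, the authors normalised the arrays by RMA with Partek Genomic Suite 6.6. The deposited values are log2 intensities and were used unchanged. Arrays carry no counts, and precision is limited by how many there are. Of 45101 probe sets, 64 were controls. The annotation named 1 gene for 34945, several for 932 and none for 9160, and 0 symbols were updated. Those whose mean fell in the lowest 30% (under 5.255) were left out, and the brightest probe set stood for each of 14292 genes.

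limma 3.58.1 in R 4.3.3 was fitted on all 6 groups with 12 residual degrees of freedom, moderated with eBayes, and p-values were adjusted by Benjamini-Hochberg over all genes. Genes passed at an adjusted p under 0.05. Single probe sets were tested likewise, with adjustment over all probe sets. The code was tested on simulated data. The members, gene lists and tests were chosen with earlier results of these data known. Named genes were the 8 members, Htr3a, up to 4 passing genes of each list with the smallest p per age comparison, and the 2 genes most correlated with each member. List members and markers named beyond this rule were chosen after their values were seen. The alternatives tried covered the filter, the choice of probe set, scaling, array weights, thresholds, a replicate block and leaving out each array. Promoters came from RefSeq.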

Additional observations from a re-analysis of the deposited data

How the results depend on the processing

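Of 28 member results that passed, 18 passed under every alternative, 10 were lost in at least 1, and 0 reversed. Of 68 that did not pass, 10 passed in at least 1, and 23 (differences from −0.52 to 0.40) changed sign without passing. From E14.5 to E18.5 in controls, 4 members passed, but 2 when the probe sets of each gene were averaged and 2 with the compared arrays alone. With the second brightest probe set the count was 1. Kcnc2, which has no second probe set, was counted there as not passing although it was not measured. Leaving out 1 array gave 2 to 5, the lowest without control array 1 of E14.5 or array 3 of E18.5. From E18.5 to P2 in Htr3a-KO, 2 became 4 with array weights and 4 at an adjusted p under 0.10. The other age counts under leaving out 1 array were 2 to 4 (E18.5 to P2) and 6 to 7 (E14.5 to P2) in controls, and 4 to 5, 2 to 3 and 5 to 7 in Htr3a-KO. At E14.5 the genotype count went from 0 to 1 (Kcnd2) without E14.5 control array 3. With array weights it went from 0 to 1 (Kcna1) at E18.5 and in the E14.5 to E18.5 interaction. Shares of all genes passing in the fits named in this paragraph are not given here. These counts thus do not show whether other genes gained or lost calls likewise. Fits on the compared arrays alone use fewer samples. Beyond this and the missing second probe set of Kcnc2, the causes were not tested.

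The replicate numbers were not taken to pair the arrays: 45 same-numbered pairs had correlations of −0.542 to 0.376 (median 0.007), and 12 were over 0.1. In 13 of the 45 pairs, the same-numbered array was the best match among the 3 arrays of the other group. For E14.5 Htr3a-KO with E18.5 control, groups compared nowhere here, all 3 pairs were over 0.1 (0.252, 0.230 and 0.159) and matched their own number best. With the replicate number as a block, the members passing from E14.5 to P2 in Htr3a-KO went from 7 to 6 (Kcnc1 lost), and the other member counts did not change. Quantile normalization moved the share of higher calls over all genes from 47.4% to 58.0% for E18.5 to P2 in Htr3a-KO. Kcnc2 has no second probe set, and the mean over ages uses all arrays, so those alternatives gave no value for them.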
